A study of Mus musculus with 14 samples.

Results

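The genes described here encode the eukaryotic translation initiation factors (eIFs) and the proteins that hold them in check. They were chosen by name: every gene whose symbol is Eif followed by a digit, with the eIF2-alpha kinase Eif2ak2 counted under the stress response and pseudogenes left aside. This gave 53 of the 24091 genes in the count table, and 51 of them passed the filter on low counts, among 12248 genes tested. The eIF2-gamma copy of the Y chromosome, Eif2s3y, and the oocyte form of eIF4E, Eif4e1b, had 0 reads in all 14 mice, which at this depth allows up to 0.151 to 0.191 CPM, the reads of a gene per 1000000 reads of its library.

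T cells were sorted from mouse spleen, with 200000 cells per sample, and bulk mRNA was sequenced. Both groups carried SCLtTA/BCR-ABL, in which the leukaemia oncogene BCR-ABL is driven through a tetracycline-controlled transactivator (tTA) under control elements of the stem cell leukaemia (SCL) gene, and BCR-ABL had been switched on for 3 weeks by taking tetracycline away. The 8 chronic phase mice (CP CML) were Mir142+/+BCR-ABL and the 6 blast crisis mice (BC CML) were Mir142-/-BCR-ABL. The comparison therefore asks how T cells of leukaemic mice differ when the microRNA gene Mir142 is missing. Mice were 6 to 10 weeks old, on a C57Bl/6j background and of both sexes across the study. In the mice sequenced here, Xist, which is transcribed from the inactive X chromosome of females, had from 28973 to 45469 reads in each of the 14 libraries, beside the 0 reads of the Y-linked Eif2s3y. Mir142 was deleted in every tissue and not in T cells alone, and each genotype carries a number of its own in the sample names, whose meaning is not given, so that genotype, disease phase and whatever that number stands for cannot be told apart.

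Initiation begins when eIF2, bound to GTP, carries the initiator methionyl-tRNA to the small ribosomal subunit together with eIF1, eIF1A, eIF5 and the large scaffold eIF3. The cap-binding protein eIF4E, the helicase eIF4A and the scaffold eIF4G form eIF4F, which brings the mRNA to that complex, and 4E-binding proteins (4E-BPs) keep eIF4E from eIF4G until the kinase mTORC1 phosphorylates them. After start codon recognition eIF5 triggers GTP hydrolysis, eIF5B joins the large subunit, and eIF2B recharges eIF2 with GTP unless stress kinases have phosphorylated eIF2-alpha. Resting T cells keep protein synthesis low and raise it on activation, in part by changing the activity of these factors, which mRNA levels do not report.

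Libraries held from 15703702 to 19914531 reads on genes. Mir142 had from 302 to 650 reads in each CP CML library and 0 in each BC CML library, which matched the labels. The gene next to it, Tspoap1, took from 0.000760 to 0.00166% of reads in CP CML and from 2.03 to 2.53% in BC CML, and removing it before scaling left the same 33 members called. The 11 T cell markers tested were present in every library, and their summed level ranged from 4605 to 5385 CPM in CP CML and from 5957 to 6586 CPM in BC CML. Of these, 5 were higher in BC CML, with log2 fold changes of 0.87 for Cd8a, 0.67 for Thy1, 0.59 for Cd3g, 0.33 for Cd2 and 0.29 for Cd5. Cd4 (-0.73) and Cd247 (-0.32) were lower, and Cd3d, Cd3e, Cd8b1 and Lck did not pass the test. All 7 naive T cell markers were lower in BC CML, with a summed level from 4498 to 5825 CPM in CP CML and from 2419 to 3556 CPM in BC CML. Of 11 activated and effector T cell markers, 9 were higher and 1 lower (summed level from 741 to 908 CPM in CP CML and from 1528 to 2072 CPM in BC CML). Myeloid markers were higher for 11 of 12 genes, with a sum from 68.8 to 628 CPM in CP CML and from 741 to 1913 CPM in BC CML, B cell markers for 4 of 6 (from 35.8 to 131 CPM in CP CML and from 64.1 to 357 CPM in BC CML) and erythroid markers for 2 of 5 (from 17.0 to 70.9 CPM in CP CML and from 54.7 to 89.0 CPM in BC CML), and no marker found in the table was at 0 in every mouse. Of 11 proliferation markers 2 were lower and none higher. Beside these counts, 32.6% of all genes tested were higher in BC CML and 32.7% lower, and the share of erythroid markers that were higher (40%) was near that. The marker lists differed between the same groups of mice, and their part in the results below was not tested. In bulk samples, fewer cells of a type and less RNA per cell cannot be told apart.

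The deleted gene makes a microRNA from each arm of its hairpin, and a microRNA binds mRNAs mainly through bases 2 to 8, its seed, shown here in capitals. Both mature sequences are from RefSeq on GRCm38.p6, plus strand, at chr11:87756867-87756887 for the 5p arm and chr11:87756903-87756925 for the 3p arm.
mmu-miR-142a-5p: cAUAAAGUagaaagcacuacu
mmu-miR-142a-3p: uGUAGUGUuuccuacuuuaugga
The longest 3′UTR of each gene (GENCODE vM21) was searched on the mRNA strand for matches to these seeds. The words searched were ACACTACA, ACACTAC and CACTACA for the 3p arm and ACTTTATA, ACTTTAT and CTTTATA for the 5p arm, where the first of each triplet contains the other two and was counted once. A match to the 3p seed was present in 2 of 51 tested members (3.92%), compared with 12.1% of 11509 tested genes with a 3′UTR. A match to the 5p seed was present in 9 of 51 members (17.6%), compared with 23.5% of genes. The median 3′UTR of the members was shorter, at 964 bases compared with 1187 bases over all tested genes. The 2 members with a 3p match, Eif1ax and Eif5b, were both lower in BC CML, and of the 9 with a 5p match 2 were higher, 5 lower and 2 not past the test. Over all tested genes, 681 of 1394 with a 3p match were higher and 306 lower (median log2 fold change of 0.15), and 1077 of 2702 with a 5p match were higher and 769 lower (median 0.050). The matches of 8 bases, the 3p match of Eif5b and the matches in the 3 members with the largest fold changes among those that held one are shown on the mRNA strand with the match in capitals.
Eif1ax, 3p: gtattatgtggACACTACAatggctgccac
Eif5b, 3p: ttcaaagtatcCACTACAaatgaatgtat
Eif1ax, 5p: caattttgagtACTTTATAaacacacaaaa
Eif5b, 5p: aaatccataaaACTTTATAaacaaacgttt
Eif5a2, 5p: gctgatttcagACTTTATAtctagaattca
Eif4e3, 5p: tttatttttgaACTTTATttaaagcattt
Eif4ebp2, 5p: cctgctcagctCTTTATAgccctgctggc
Eif3f, 5p: tttgtaaatgaACTTTATctgatgcgagt
The matches lie at chrX:159389356-159389363 and chrX:159386579-159386586 for Eif1ax, chr1:38052502-38052508 and chr1:38052850-38052857 for Eif5b, chr3:28794847-28794854 for Eif5a2 and chr7:108941691-108941697 for Eif3f, all on the plus strand. Those of Eif4e3 at chr6:99625214-99625220 and Eif4ebp2 at chr10:61429228-61429234 are on the minus strand. Both Eif1ax matches and that of Eif4ebp2 lie beyond the end of the gene as the count table lists it. A match is a sequence description only, and the pair with the largest changes, Eif4e3 and Eif4ebp2, each held 1 match of 7 bases to the 5p seed and moved in opposite directions.

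Across the members, many mRNAs differed between groups and most differences were small. Of 51 tested members, 33 (64.7%) passed an adjusted p of 0.05 in edgeR's quasi-likelihood test, compared with 65.2% of all genes tested, so the share called was near the background. Of these, 11 (21.6%) were higher in BC CML and 22 (43.1%) lower, while over all genes 32.6% were higher and 32.7% lower. The groups of mice did not overlap for 19 members (37.3%), 5 above and 14 below, compared with 36.9% of genes. Among genes with an average log2 CPM of at least 5, 30 of 46 members were called, and 69.1% of all such genes were. A log2 fold change of at least 0.5 in either direction was present for 4 called members (7.84%), compared with 28.5% of genes, and these were Eif4e3, Eif4ebp2, Eif2a and Eif3f. The median log2 fold change was -0.076 over the members and -0.0083 over all genes, and the median size of a called change was 0.29 and 0.43. Because 65.2% of all genes differed, a call by itself sets no member apart.

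**Figure D1:**
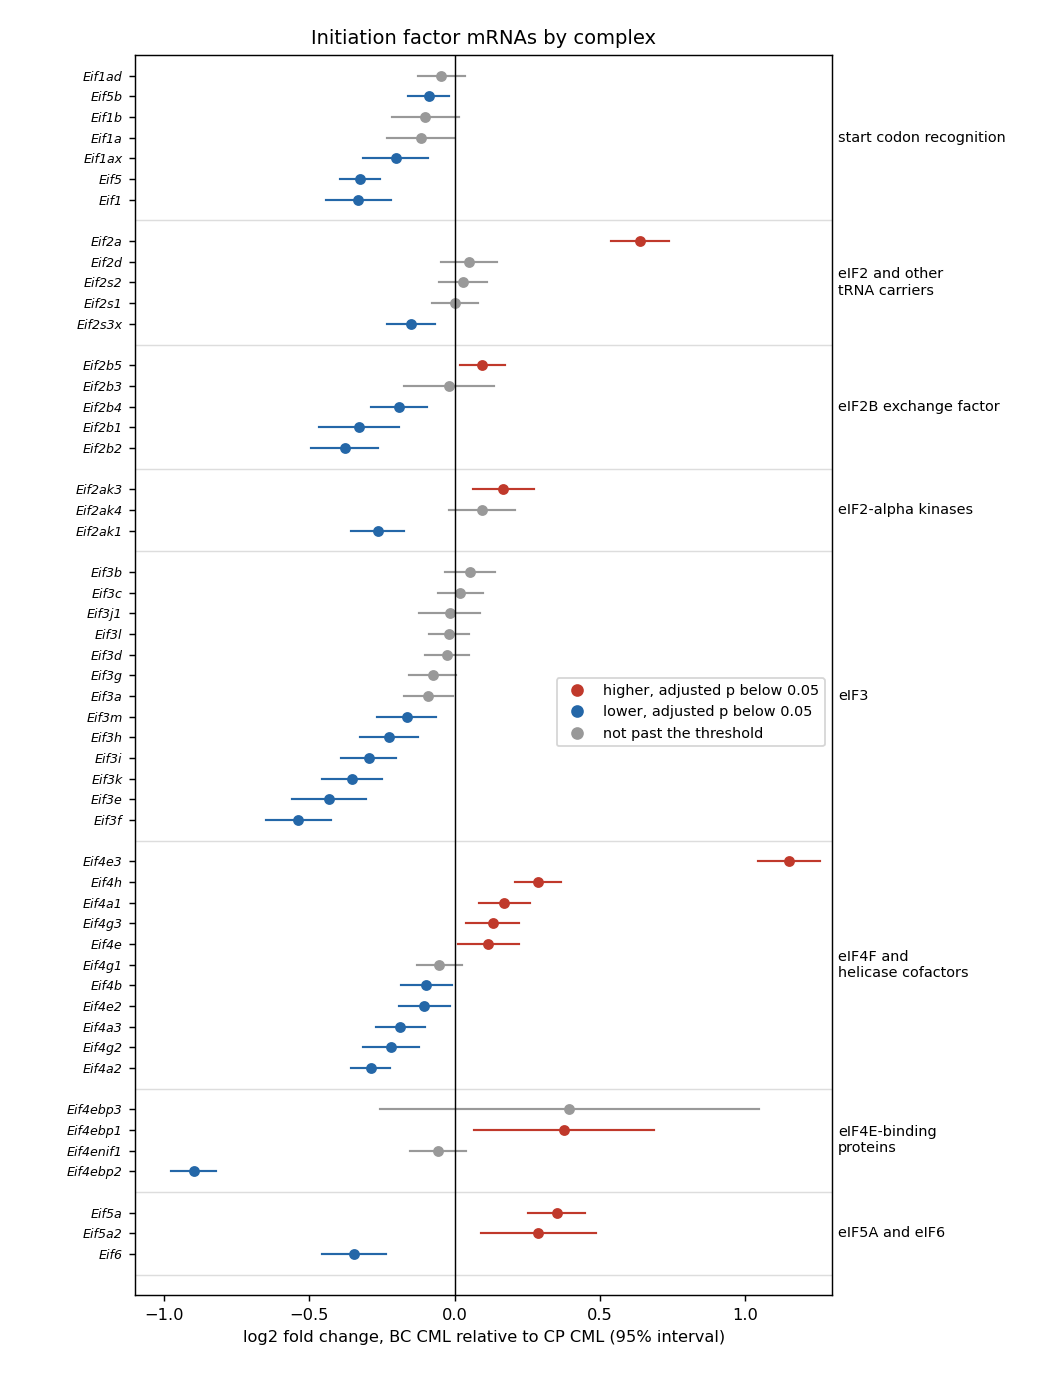
Log2 fold change (x axis, BC CML relative to CP CML, with 95% interval) of each of the 51 tested members, grouped by complex, red for higher, blue for lower and grey for not past an adjusted p of 0.05. Eif4e3 stands at 1.15 and Eif4ebp2 at -0.90, and 29 of the 33 called members lie within 0.5 of 0.

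The mRNA level is given as CPM relative to library sizes scaled by the trimmed mean of M-values. Levels varied little within a group: the median coefficient of variation of the members was 5.30% in CP CML and 5.37% in BC CML. It was above 10% for 3 members in each group, and the highest values, 48.5% and 30.0%, belonged to Eif4ebp3, which had from 4 to 24 reads per library. The sum over all members was from 10458 to 11471 CPM in CP CML and from 9796 to 10559 CPM in BC CML, and these ranges overlap slightly.

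Of the cap-binding and helicase genes, 10 of 11 tested members were called, 5 higher and 5 lower, with a median log2 fold change of -0.052. That is 90.9% called and 45.5% in each direction, beside 65.2% of all genes called, 32.6% higher and 32.7% lower. Eif4e3 (chr6:99625137-99666771, minus strand), which encodes a divergent cap-binding protein of the eIF4E family, ranged from 18.6 to 23.3 CPM (median 21.1) in CP CML and from 44.9 to 50.9 CPM (median 46.0) in BC CML. No CP CML mouse reached the BC CML range (log2 fold change of 1.15, SE 0.051, adjusted p = 2.40e-12, 95% interval 1.05 to 1.26), and the fitted level was 2.22-fold that of CP CML. This was the largest fold change of any member. Eif4e (chr3:138526191-138559696, plus strand), the main cap-binding protein, ranged from 59.4 to 70.0 CPM (median 65.0) in CP CML and from 65.8 to 80.3 CPM (median 69.0) in BC CML. The groups overlapped and the difference was near the threshold (log2 fold change of 0.12, SE 0.049, adjusted p = 0.046), with adjusted p from 0.027 to 0.151 over 23 alternative settings, 14 of which lost the call. Eif4e2, a cap-binding protein that acts in repression of translation, was slightly lower in BC CML (log2 fold change of -0.10, adjusted p = 0.036), a call lost under 9 of those settings.

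The eIF4A helicases, which unwind the 5′ end of mRNAs, moved apart. Eif4a1 (chr11:69666936-69672423) ranged from 488 to 558 CPM (median 528) in CP CML and from 558 to 645 CPM (median 579) in BC CML, and Eif4a2 (chr16:23107468-23114132) ranged from 804 to 863 CPM (median 830.0) in CP CML and from 655 to 711 CPM (median 672) in BC CML. BC CML mice were all above CP CML mice for Eif4a1, by a narrow margin (log2 fold change of 0.17, SE 0.042, adjusted p = 0.00165), and all below for Eif4a2 (log2 fold change of -0.29, SE 0.032, adjusted p = 4.61e-07). The Eif4a2 gene also holds the small nucleolar RNA genes Snora81 and Snord2 in its introns and meets Rfc4 on the other strand, with from 95 to 305 reads each against at least 10676 for Eif4a2. Eif4h, a cofactor that stimulates eIF4A, ranged from 198 to 225 CPM (median 209) in CP CML and from 242 to 269 CPM (median 253) in BC CML, without overlap (log2 fold change of 0.29, SE 0.037, adjusted p = 2.51e-06). The other cofactor, Eif4b, was slightly lower (log2 fold change of -0.097, adjusted p = 0.047) and lost its call under 15 of 23 settings. Eif4a3, the helicase of the exon junction complex, was lower with overlapping groups (-0.19, adjusted p = 5.66e-04).

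Among the scaffolds, Eif4g2, an eIF4G-like protein that does not bind eIF4E, was the most abundant member by CPM and was lower in BC CML. Its level ranged from 1227 to 1468 CPM (median 1288) in CP CML and from 1068 to 1215 CPM (median 1110.2) in BC CML, without overlap (log2 fold change of -0.22, SE 0.046, adjusted p = 4.15e-04). Eif4g3 was higher (log2 fold change of 0.13, SE 0.043, adjusted p = 0.013) with overlapping groups, a call lost under 1 of 23 settings, the replicate block (adjusted p = 0.104, with adjusted p from 0.00380 to 0.104 over all settings). Eif4g1, the main scaffold, ranged from 557 to 624 CPM (median 600.1) in CP CML and from 531 to 610.2 CPM (median 578) in BC CML and did not pass the test (log2 fold change of -0.052, SE 0.037, adjusted p = 0.228). The scaffolds thus showed a lower, a higher and an uncalled member, each by less than 0.5 on the log2 scale.

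**Figure D2:**
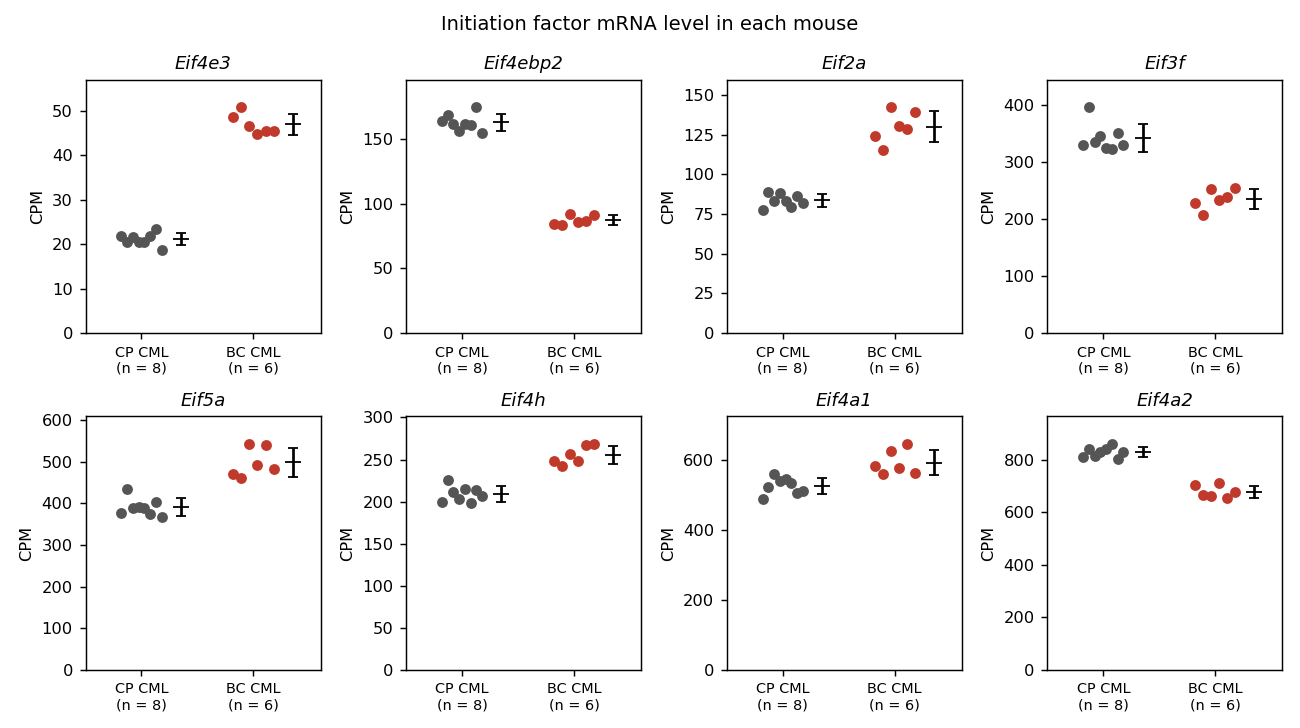
CPM (y axis) in each mouse for 8 initiation factor mRNAs in 8 CP CML (grey) and 6 BC CML (red) mice, with mean and SD at the right of each group. The 8 were picked from the 19 members whose groups do not overlap (37.3%, beside 36.9% of all genes). They show all 5 that were above in BC CML and only some of the 14 that were below. Relative to level, the widest gaps are those of Eif4e3 (at most 23.3 in CP CML, at least 44.9 in BC CML) and Eif4ebp2 (at least 155 and at most 92.3).

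The 4E-BPs restrain eIF4E, and their genes differed in level and in direction. Eif4ebp2 (chr10:61432497-61452669, minus strand) ranged from 155 to 175 CPM (median 161) in CP CML and from 83.5 to 92.3 CPM (median 86.1) in BC CML. All BC CML mice were below all CP CML mice (log2 fold change of -0.90, SE 0.037, adjusted p = 1.11e-12, 95% interval -0.98 to -0.82), so that the fitted level fell by 46.3%. Eif4ebp1, the best known of these mTORC1 targets, was scarce in both groups, with from 39 to 88 reads per library. It ranged from 1.95 to 4.29 CPM (median 3.16) in CP CML and from 3.43 to 4.66 CPM (median 4.18) in BC CML, with overlap (log2 fold change of 0.38, SE 0.15, adjusted p = 0.032), and the adjusted p ran from 0.011 to 0.090 over the alternative settings, 7 of which lost the call. Eif4ebp3 did not pass the test (adjusted p = 0.274), and it lies within Ankhd1 on the same strand, a gene with 4756 to 6582 reads, so that the reads of the pair may not be separable. Eif4enif1, which carries eIF4E into the nucleus, differed by -0.057 (95% interval -0.15 to 0.039) and was not called. Summed over Eif4ebp1, Eif4ebp2 and Eif4ebp3, levels ranged from 159 to 179 CPM in CP CML and from 88.1 to 97.3 CPM in BC CML.

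Ratios of reads per kb within a mouse do not depend on how libraries are scaled. The ratio of Eif4ebp2 to Eif4e ranged from 6.60 to 7.88 in CP CML (median 7.09) and from 3.25 to 3.99 in BC CML (median 3.53). The ratio of Eif4e3 to Eif4e ranged from 0.591 to 0.752 in CP CML (median 0.640) and from 1.15 to 1.58 in BC CML (median 1.37). Which of these 2 mRNAs stands higher depends on the listed lengths, 2.506 kb for Eif4e3 and 5.106 kb for Eif4e. Without them, Eif4e3 had fewer reads than Eif4e in every mouse, from 817 to 889 beside 1056 to 1561 in BC CML. The separation of the groups does not depend on the lengths. Eif4a1 to Eif4a2 ranged from 1.02 to 1.16 in CP CML (median 1.06) and from 1.37 to 1.67 in BC CML (median 1.42). These 3 ratios did not overlap between groups, nor did that of Eif4ebp1 to Eif4ebp2, which ranged from 0.0228 to 0.0484 in CP CML (median 0.0351) and from 0.0746 to 0.101 in BC CML (median 0.0882). The ratios of Eif4ebp1 to Eif4e, Eif1 to Eif1b, Eif1a to Eif1ax, Eif5a to Eif5a2 and Eif4g1 to Eif4g3 overlapped. They are given as a description, with no test of their own.

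**Figure D3:**
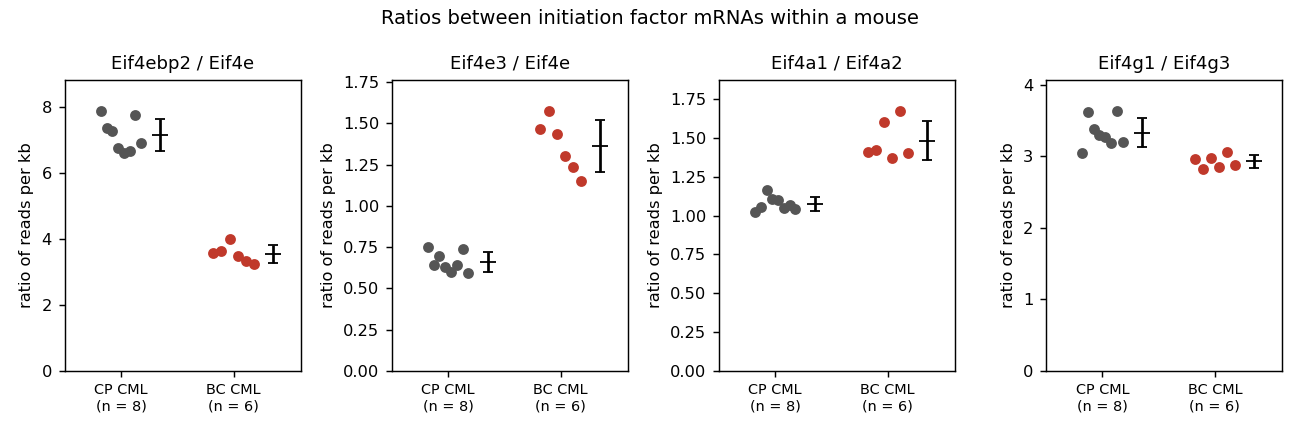
Ratio of reads per kb of gene length (y axis) between pairs of initiation factor mRNAs within each of 8 CP CML (grey) and 6 BC CML (red) mice, with mean and SD. The groups separate for Eif4ebp2 to Eif4e, Eif4e3 to Eif4e and Eif4a1 to Eif4a2 and overlap for Eif4g1 to Eif4g3.

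The eIF3 genes encode the scaffold that binds the small subunit, and 6 of 13 were lower in BC CML and none higher, with a median log2 fold change of -0.090. That is 46.2% called, all lower, beside 65.2% of all genes called and 32.7% lower. Groups did not overlap for 38.5% of the eIF3 genes, near the 36.9% of all genes. Eif3f (chr7:108934415-108941942) ranged from 323 to 397 CPM (median 332) in CP CML and from 206 to 254 CPM (median 236) in BC CML, without overlap (log2 fold change of -0.54, SE 0.053, adjusted p = 8.84e-08). Eif3e (chr15:43250040-43282736) ranged from 358 to 466 CPM (median 395) in CP CML and from 260.1 to 322 CPM (median 303) in BC CML, also without overlap (log2 fold change of -0.43, SE 0.060, adjusted p = 6.53e-06). Eif3k ranged from 151 to 182 CPM (median 155) in CP CML and from 109.8 to 133 CPM (median 126) in BC CML (log2 fold change of -0.35, SE 0.049, adjusted p = 6.36e-06). In each case the highest BC CML mouse was below the lowest CP CML mouse. Eif3i (-0.30) and Eif3h (-0.23) were lower without overlap too, and Eif3m (-0.17) with overlap. The subunits Eif3e, Eif3f, Eif3h, Eif3k and Eif3m belong to the octameric core of PCI and MPN domain proteins, as do Eif3a, Eif3c and Eif3l, for which log2 fold changes were -0.090, 0.020 and -0.019 and the test was not passed. Eif3b, Eif3d, Eif3g and Eif3j1 did not pass it either, with log2 fold changes from -0.076 to 0.053. The interval for Eif3c ran from -0.058 to 0.098 and that for Eif3l from -0.088 to 0.050, and neither reached the fall measured for Eif3f. The summed eIF3 level ranged from 3062 to 3555 CPM in CP CML and from 2699 to 3037 CPM in BC CML, without overlap. One CP CML mouse, replicate 2, was the highest of its group for all 6 subunits called lower, and without it 20 members in place of 22 were called lower.

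**Figure D4:**
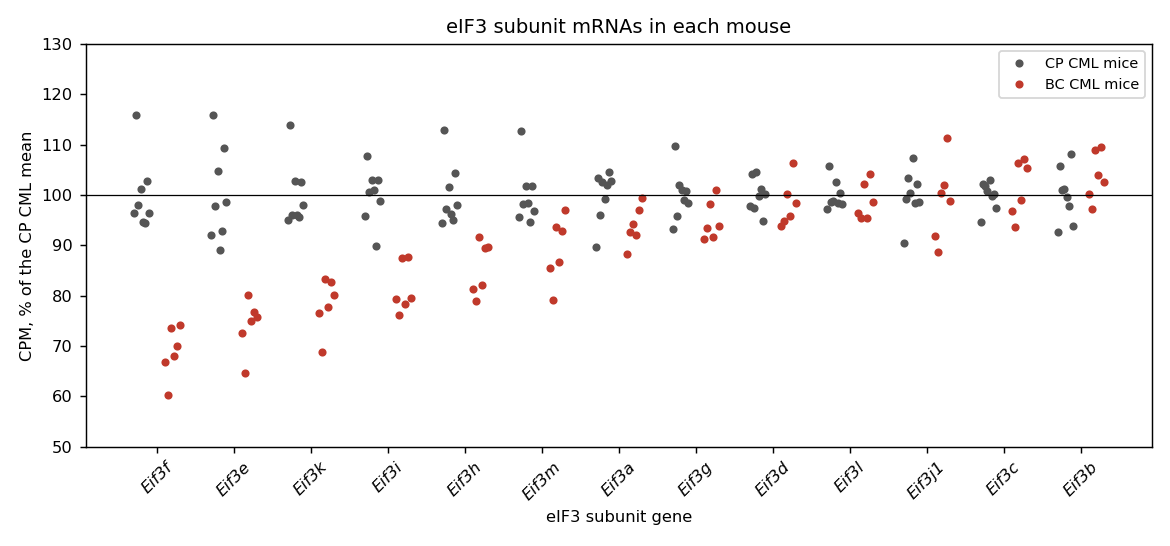
CPM as a percentage of the CP CML mean (y axis, from 50 to 130) for each of 13 eIF3 subunit genes in 8 CP CML (grey) and 6 BC CML (red) mice, ordered by fold change. BC CML mice lie below CP CML mice for Eif3f, Eif3e, Eif3k, Eif3i and Eif3h and are mixed with them for the other subunits.

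Of the 7 genes grouped under start codon recognition, 4 were lower and none higher, with a median log2 fold change of -0.12. That is 57.1% lower, beside 32.7% of all genes, and groups did not overlap for 28.6%, beside 36.9%. The group includes Eif1ad, whose part in this step was not examined. Eif1 (chr11:100319949-100322099), which keeps the scanning complex open until it meets a start codon, ranged from 348 to 439 CPM (median 383) in CP CML and from 293 to 313 CPM (median 309) in BC CML (log2 fold change of -0.33, SE 0.053, adjusted p = 2.89e-05). Eif5 (chr12:111538101-111546753), which triggers GTP hydrolysis by eIF2, ranged from 441 to 485 CPM (median 451) in CP CML and from 349 to 376 CPM (median 366) in BC CML (log2 fold change of -0.32, SE 0.033, adjusted p = 1.19e-07). Neither gene overlapped between groups. Eif1ax, the X-linked gene for eIF1A, ranged from 45.9 to 53.9 CPM (median 48.6) in CP CML and from 40.0 to 49.6 CPM (median 42.2) in BC CML, with overlap (log2 fold change of -0.20, SE 0.053, adjusted p = 0.00272), and Eif5b, the subunit joining factor, was lower by little (-0.089, adjusted p = 0.028), a call lost under 3 of 23 settings. Eif1a, Eif1ad and Eif1b did not pass the test, with log2 fold changes of -0.12, -0.046 and -0.10. Summed over the list, levels ranged from 1225 to 1356 CPM in CP CML and from 1064 to 1102 CPM in BC CML, again without overlap.

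For eIF2 itself, which delivers the initiator tRNA, the alpha and beta subunit genes did not pass the test and the gamma gene was lower. Eif2s1 (eIF2-alpha) differed by 0.0030 (95% interval -0.076 to 0.082) and Eif2s2 (eIF2-beta) by 0.029 (95% interval -0.055 to 0.11). The X-linked gamma gene Eif2s3x ranged from 115 to 129 CPM (median 119) in CP CML and from 102 to 118 CPM (median 108) in BC CML and was lower, with overlap (log2 fold change of -0.15, SE 0.039, adjusted p = 0.00280). Its Y-linked copy had no read in any mouse, and Xist was present in each. Eif2a (chr3:58525821-58557501), which encodes a monomeric factor that can deliver initiator tRNA without eIF2 and is not eIF2-alpha, ranged from 77.5 to 88.8 CPM (median 83.2) in CP CML and from 115 to 143 CPM (median 129) in BC CML. The ranges of the groups did not meet (log2 fold change of 0.64, SE 0.047, adjusted p = 2.15e-09, 95% interval 0.54 to 0.74). Eif2a overlaps Serp1 on the opposite strand, a gene with from 2548 to 4406 reads per library, and whether the counting used strand is not given in the sources used here, so that reads of the pair may not be told apart. Eif2d, which also carries tRNA and acts in ribosome recycling, differed by 0.050 (95% interval -0.046 to 0.15) and was not called. The same limit of strand holds for Eif2d, with 585 to 819 reads beside 4508 to 8037 for Rassf5 on the other strand, for Eif2s2, with 2165 to 2926 beside 2599 to 3378 for Raly, and for Eif3j1, with 769 to 1111 beside 1302 to 1810 for Spg11. It also holds for Eif1ad, with 878 to 1225 beside 689 to 1051 for Banf1, for Eif5b, with 3369 to 4563 beside 622 to 959 for Rev1, and for Eif2ak1, with 985 to 1553 beside 230 to 402 for Aimp2.

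The exchange factor eIF2B has regulatory subunits alpha, beta and delta and catalytic subunits gamma and epsilon. All 3 regulatory genes were lower in BC CML, which is 60% of the 5 eIF2B genes, beside 32.7% of all genes tested. Eif2b1 (alpha) ranged from 29.2 to 36.3 CPM (median 31.0) in CP CML and from 21.5 to 27.6 CPM (median 25.7) in BC CML, without overlap (log2 fold change of -0.33, SE 0.066, adjusted p = 2.81e-04). Eif2b2 (beta) ranged from 37.7 to 44.5 CPM (median 41.6) in CP CML and from 29.5 to 34.9 CPM (median 30.8) in BC CML, without overlap (log2 fold change of -0.38, SE 0.054, adjusted p = 9.02e-06), and Eif2b4 (delta) ranged from 33.1 to 39.5 CPM (median 38.6) in CP CML and from 31.5 to 34.2 CPM (median 33.0) in BC CML, with overlap (log2 fold change of -0.19, SE 0.046, adjusted p = 0.00149). Of the catalytic subunits, Eif2b5 was higher by 0.096 (adjusted p = 0.029, lost under 10 of 23 settings) and Eif2b3 was not called (-0.020, 95% interval -0.17 to 0.14). The difference between the regulatory and catalytic classes was not tested.

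The kinases that phosphorylate eIF2-alpha respond to different stresses. Eif2ak1 (HRI), which senses haem shortage and mitochondrial stress, ranged from 72.8 to 85.7 CPM (median 78.3) in CP CML and from 61.4 to 69.5 CPM (median 66.8) in BC CML, without overlap (log2 fold change of -0.26, SE 0.043, adjusted p = 3.84e-05). Eif2ak3 (PERK), the kinase of endoplasmic reticulum stress, ranged from 52.1 to 58.9 CPM (median 56.8) in CP CML and from 56.8 to 71.4 CPM (median 63.3) in BC CML, with overlap (log2 fold change of 0.17, SE 0.050, adjusted p = 0.00702). Eif2ak4 (GCN2), which senses uncharged tRNA, ranged from 29.0 to 36.5 CPM (median 32.9) in CP CML and from 33.1 to 37.6 CPM (median 35.4) in BC CML and was not called (0.095, adjusted p = 0.131). The remaining kinase, Eif2ak2 (PKR), which senses double-stranded RNA, ranged from 60.8 to 72.7 CPM (median 64.9) in CP CML and from 66.7 to 101.5 CPM (median 79.4) in BC CML, with overlap (log2 fold change of 0.28, SE 0.075, adjusted p = 0.00313).

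Eif5a and Eif6 act mostly outside scanning. Eif5a (chr11:69916712-69921958), which carries the amino acid hypusine and relieves stalled ribosomes, ranged from 366 to 435 CPM (median 389) in CP CML and from 462 to 544 CPM (median 488) in BC CML, without overlap (log2 fold change of 0.35, SE 0.047, adjusted p = 3.62e-06). Its paralogue Eif5a2 ranged from 14.8 to 23.1 CPM (median 16.5) in CP CML and from 17.9 to 23.5 CPM (median 22.0) in BC CML, with overlap (log2 fold change of 0.29, SE 0.094, adjusted p = 0.012). Eif6, which keeps the large ribosomal subunit from joining too early, ranged from 47.6 to 57.6 CPM (median 52.0) in CP CML and from 37.7 to 43.1 CPM (median 41.4) in BC CML, and each BC CML mouse was below each CP CML mouse (log2 fold change of -0.35, SE 0.053, adjusted p = 1.59e-05).

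Levels of different genes are given per listed length, as mean ± SD over n = 8 CP CML mice. In CP CML, the highest members on this scale were Eif1 at 307 ± 28.3 CPM per kb, Eif4a1 at 281 ± 12.3 CPM per kb and Eif4a2 at 261 ± 6.09 CPM per kb, and the lowest tested member was Eif4ebp3 at 0.603 ± 0.293 CPM per kb. The median member stood at 36.6 CPM per kb in CP CML and 36.0 in BC CML. Eif4e, at 12.8 ± 0.653 CPM per kb, was far below its partners Eif4a1 and Eif4g1 (109 ± 4.15 CPM per kb) and below its binding protein Eif4ebp2 (91.2 ± 3.59 CPM per kb), while Eif4ebp1 reached 3.25 ± 0.682 CPM per kb. The eIF2 subunit genes Eif2s1, Eif2s2 and Eif2s3x stood close to each other, at 36.6, 24.5 and 33.1 CPM per kb in CP CML, whereas eIF3 subunit genes ranged from 22.5 (Eif3j1) to 255 (Eif3h). Lengths are those listed beside each gene in the count table, and they need not match the transcripts. Eif4ebp2 was listed at 1.783 kb while its longest 3′UTR held 5306 bases, and Eif1ax at 0.919 kb beside 4515 bases. The order of genes on this scale depends on those lengths.

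**Figure D5:**
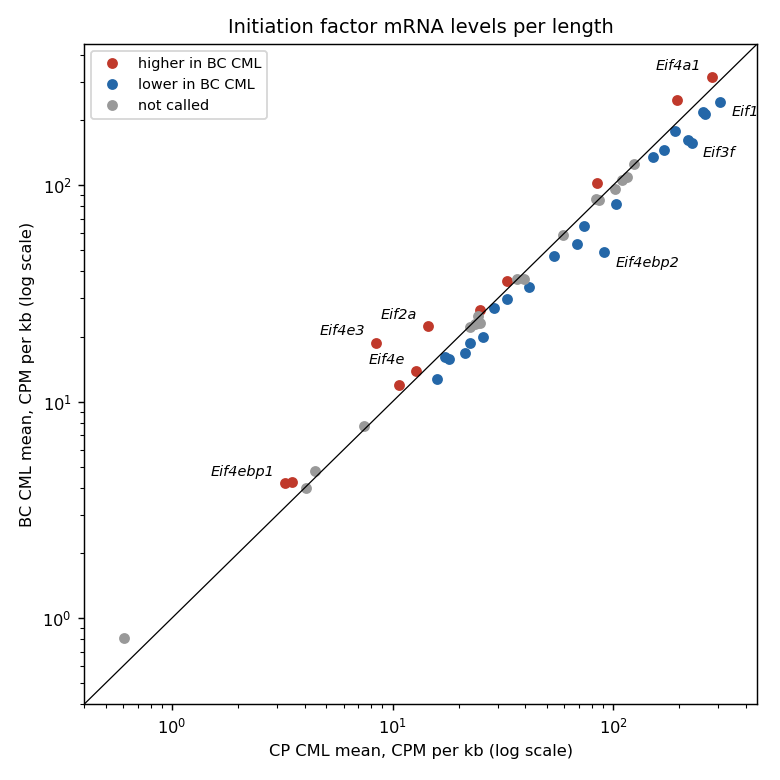
Mean CPM per kb in CP CML (x axis, log scale) and BC CML (y axis, log scale) for the 51 tested members, coloured by call, with the line of equal level. Most members lie close to the line over a range from 0.603 to 307 CPM per kb in CP CML, with Eif4e3 and Eif2a above it and Eif4ebp2 below it.

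The windows from 250 bases before to 50 bases after the RefSeq transcription starts (GRCm38.p6) were searched for CACGTG, the palindromic E-box that MYC and related factors bind, and for a start formed by C and 4 further pyrimidines, the core of a 5′ terminal oligopyrimidine tract. The table held 42 members, 41 of them tested. The E-box was present for 10 of these (24.4%), compared with 11.8% of 9548 tested genes and 8.09% of all 27025 genes in the table. It was present for 5 of 9 searched members that were higher in BC CML, 2 of 17 that were lower (Eif3f and Eif3k) and 3 of 15 that were not called (Eif1b, Eif3a and Eif4g1). Its share among all genes called higher or lower was not counted, so this split has no background beside it. Of the called members, Eif4e3 and Eif4ebp1, which were higher, and Eif3e, Eif3h, Eif3i, Eif4g2 and Eif6, which were lower, were not searched here. Among the 9 higher members, Eif4e, which had the E-box, lost its call under 14 of 23 alternative settings, and Eif2b5, which had none, under 10. A gene with several starts has several windows, and the 9 higher members had 16 windows compared with 19 for the 17 lower ones. The start of C and 4 pyrimidines was found for 2 of 41 members (Eif2s3x and Eif3f) and 3.04% of tested genes. For each of the 5 higher members the E-box nearest to a start is shown with 27 bases on each side, on the strand of the gene, with the motif in capitals.
Eif4a1: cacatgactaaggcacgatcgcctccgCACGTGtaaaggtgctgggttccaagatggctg
Eif4e: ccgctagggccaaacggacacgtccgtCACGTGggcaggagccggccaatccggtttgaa
Eif4h: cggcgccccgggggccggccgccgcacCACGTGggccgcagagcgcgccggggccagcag
Eif5a: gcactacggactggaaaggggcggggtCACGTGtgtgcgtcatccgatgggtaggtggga
Eif5a2: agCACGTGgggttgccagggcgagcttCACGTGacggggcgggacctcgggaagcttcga
These stretches lie at chr11:69672580-69672639 (minus), chr3:138527177-138527236 (plus), chr5:134639473-134639532 (minus), chr11:69921428-69921487 (minus) and chr3:28781133-28781192 (plus). The central motif begins 189, 64, 96, 74 and 117 bases before the start, in that order, and Eif5a2 has a second one in the stretch shown. Eif4e has a further one 228 bases before the same start and Eif5a one 178 bases before another of its starts, both outside the stretches shown. For Eif4e and Eif5a the start used lies inside the gene as the count table lists it. These matches describe the sequence, and no binding was measured. Myc mRNA itself ranged from 102 to 149.6 CPM (median 124) in CP CML and from 89.3 to 177 CPM (median 126) in BC CML and was not called (log2 fold change of 0.022, adjusted p = 0.889).

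Genes that act around initiation gave the following counts, with the median log2 fold change of each list to be read beside -0.0083 over all genes. Of 11 tested elongation and termination genes 2 were higher and 6 lower (median -0.14), and the most changed were the elongation factor 1 genes Eef1b2 (-0.82), Eef1g (-0.66) and Eef1a1 (-0.60), all lower without overlap, and the eEF2 kinase gene Eef2k (0.53), higher without overlap. Their summed level ranged from 17814 to 22300.5 CPM in CP CML and from 12469.6 to 15138 CPM in BC CML. Of 14 poly(A) binding genes and regulators of eIF4A and eIF4E, 4 were higher and 4 lower (median -1.58e-05). Paip1, which stimulates translation through poly(A)-binding protein, was higher (0.50), as was the eIF4A inhibitor Pdcd4 with overlap (0.31), while Pabpc1, the main poly(A)-binding protein, was lower (-0.50), as was its inhibitor Paip2 (-0.31), and apart from Pdcd4 these did not overlap.

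In the integrated stress response list, which holds the kinase Eif2ak2, regulators of the kinase GCN2 (Gcn1l1 and Impact) and genes that act downstream of phosphorylated eIF2-alpha, 6 of 12 tested genes were higher and 3 lower (median 0.23). The summed level of the list ranged from 813 to 921 CPM in CP CML and from 806 to 860.1 CPM in BC CML, with overlap, and its mean was 873 CPM in CP CML and 836 CPM in BC CML. Eif2ak2 and Impact (0.21) were among the higher and Gcn1l1 (-0.14) among the lower, each with overlap. Asns, asparagine synthetase, ranged from 0.952 to 1.72 CPM (median 1.29) in CP CML and from 3.86 to 7.26 CPM (median 6.08) in BC CML (log2 fold change of 2.22, SE 0.16, adjusted p = 1.20e-09). Ddit3 (CHOP) ranged from 13.7 to 20.7 CPM (median 16.0) in CP CML and from 30.5 to 36.8 CPM (median 31.8) in BC CML (log2 fold change of 0.99, SE 0.078, adjusted p = 4.93e-09), and Atf5 was higher as well (1.01). Atf3 had from 3 to 10 reads in CP CML and from 22 to 65 in BC CML (adjusted p = 1.11e-06). Atf4 mRNA was not called (0.079, adjusted p = 0.126), and Ppp1r15a (GADD34), the phosphatase subunit that reverses eIF2-alpha phosphorylation, was lower with overlap (-0.79).

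Of 16 genes of mTORC1, the kinase that releases eIF4E from 4E-BPs, and of S6 kinase, 11 were higher and 2 lower (median 0.24), and the 4 most changed were Deptor (1.06), Ddit4 (0.94), Rragd (0.90) and Akt1s1 (0.72). Ddit4 ranged from 77.9 to 223 CPM (median 109) in CP CML and from 174 to 305 CPM (median 236) in BC CML, with overlap, and the other 3 did not overlap. Deptor, Ddit4 and Akt1s1 encode inhibitors of the pathway and Rragd a GTPase that recruits mTORC1 to the lysosome. The summed level of the list ranged from 968 to 1128 CPM in CP CML and from 1277 to 1383 CPM in BC CML, without overlap. Within it the mean rose most for Ddit4 (124 CPM in CP CML and 237 in BC CML), Sesn3 (128 and 210) and Sesn1 (112 and 148). The sum mixes inhibitors with other parts of the pathway and does not report kinase activity. Of 10 MYC network genes 2 were higher and 4 lower (median 0.028), led by the MYC antagonist Mxd4, which ranged from 23.1 to 33.5 CPM (median 24.8) in CP CML and from 60.9 to 83.6 CPM (median 68.7) in BC CML (log2 fold change of 1.44, SE 0.087, adjusted p = 2.94e-10), and followed by Mxi1 (-0.38), Mxd1 (0.34) and Mlx (-0.26), of which Mxi1 and Mxd1 overlapped. These counts stand beside a background of 32.6% higher and 32.7% lower.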

How the data were processed

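Spleen T cells of 8 CP CML and 6 BC CML mice were profiled by RNA sequencing (miRNeasy extraction, Kapa mRNA HyperPrep libraries, NovaSeq6000, paired reads of 101 bases). The authors trimmed reads with Trimmomatic and FASTP, aligned them to mm10 with STAR 2.6.0 and deposited raw counts per gene from HTSeq 0.11.1. The gene annotation and the strand setting of the counting are not given in the sources used here. Values are therefore whole read counts, with no normalization by the authors, and gene positions and lengths are those listed in the count table.

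Counts were filtered (filterByExpr), scaled by the trimmed mean of M-values and tested with the quasi-likelihood F-test of edgeR 4.0.16 in R 4.3.3 across all 12248 genes, with Benjamini-Hochberg adjustment over all of them. A gene was called at an adjusted p of 0.05. The test was checked on simulated counts with known changes. The alternatives tried were DESeq2 1.42.0, edgeR's likelihood ratio test, other scalings and filters, a replicate block and leaving out each mouse. Replicates are separate mice. Counts of any 2 libraries of a group differed by more than sampling noise (chi-square per degree of freedom from 3.09 to 22.8). Total reads per library ranged from 15703702 to 19914531, and limits for genes at 0 (3 reads) cover counting error only.

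The members and gene lists were chosen with earlier results of these data known, so no test over a list was made. In each complex the 3 called members with the largest fold change, or all called members where there were fewer, were described in full, together with Eif4e, Eif4ebp1, Eif4ebp2, the kinases and Eif2ak2, and in each other list at most 4 called genes with the largest fold change were named, most by that value alone. Others were named after their values were seen. Promoter and microRNA sequences were from RefSeq on GRCm38.p6 and 3′UTRs from GENCODE vM21, the same genome build as mm10. Figures were drawn with matplotlib.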

Additional observations from a re-analysis of the deposited data

Results flagged for a closer look

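Each tested member was examined in each group for a mouse far from the others of its group (a gap to the nearest mouse that exceeds Dixon's 95% limit as a share of the group's range). Of 102 member and group pairs 4 met this, where chance gives about 1 in 20, or 5.10 of 102. All 4 were the highest value of CP CML and came from the same mouse, replicate 2. Eif2b5 was 69.4 CPM there, compared with 63.3 in the next mouse. Eif3f was 397 CPM compared with 351, Eif3k 182 compared with 164, and Eif3m 209 compared with 189. The members also took their highest share of reads, 1.14%, in this mouse. Without it, 10 members were called higher and 20 lower, and Eif3f, Eif3k and Eif3m stayed lower.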

How the results depend on the processing

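Over 23 alternatives, 26 of the 33 called members kept their call and direction in each, and no called member changed direction. The count of all genes called ranged from 7721 to 7966 when 1 mouse was left out, that of members called higher from 8 to 11 and lower from 20 to 24, and that of the pathway genes from 23 to 26 higher and from 18 to 20 lower. Upper-quartile scaling, which moved the median of all genes by -0.034, called 9 members higher and 27 lower.

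With the replicate block, in which mice of the same number were treated as pairs, 7 members were called higher in place of 11, and 19 lower. The mean correlation of deviations between same-numbered mice was -0.024 (range -0.27 to 0.36 over 6 pairs), and 2 of 6 correlated best with their own number, so the numbers do not pair the mice. The block lost the calls of Eif5b, Eif2b5, Eif4b, Eif4e, Eif4e2, Eif4g3 and Eif4ebp1.

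Leaving out 1 mouse also ended calls near the threshold. Eif5b lost its call without BC CML 6 (adjusted p = 0.061), Eif2b5 without CP CML 4 or 6 or BC CML 2, 3 or 5 (at most 0.077), and Eif4ebp1 without CP CML 1, 4 or 8 or BC CML 1, 5 or 6 (at most 0.070). Eif4b kept its call only without CP CML 1, 5 or 6 or BC CML 3 (at most 0.125 otherwise), Eif4e only without CP CML 5 or 6 or BC CML 1, 2 or 3 (at most 0.151), and Eif4e2 was lost without CP CML 2, 5 or 8 or BC CML 1 to 4 (at most 0.086).

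Direction changed only for members that were never called. The log2 fold change of Eif2s1 was -0.030 with upper-quartile factors, -0.00616 with library size alone and from -0.023 to 0.019 with a mouse left out. Eif2s2 was -0.0044 and Eif3c -0.013 with upper-quartile factors. With a mouse left out Eif2b3 ranged from -0.082 to 0.012 and Eif3j1 from -0.056 to 0.013. Of the uncalled members, 5 were called in at least 1 alternative (Eif1a, Eif1b, Eif3a, Eif3g and Eif4g1, all lower). Eif4ebp3 and Eif4ebp1 had at most 24 and 88 reads per library, and whether depth limited their results was not tested.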
